A study of Mus musculus with 77 samples.

Results

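Whole-blood mRNA was compared between B6 mice that were resilient after chronic social defeat stress (CSDS) and B6 control mice, as 5 resilient against 5 control samples out of 77 samples in the series and 25 blood mRNA samples. The members of the comparison were chosen by the labelled strain, tissue and phenotype, and all 13084 genes in the deposited blood table were tested. Both groups were male B6 mice aged 8 weeks at dissection, named C57BL/6Crl in the labels and C57BL/6NCrl in the study's text. No transgene or drug was named for either group. Resilient mice had been exposed daily to an aggressive CD-1 resident. In a social avoidance test their social interaction ratios then lay above a cut set from controls of their strain. Control mice had been housed beside a changing neighbour behind a perforated divider without physical contact. For profiling, the study took resilient mice with the highest ratios and controls whose ratios were nearest to the mean. Resilience is a label given by behaviour after the defeat, so the comparison describes mice sorted by outcome, and blood was taken 6 to 8 days after the last defeat, per the labels and the study's methods. The 5 susceptible B6 samples, defeated mice that avoided the social target, are used below to place the resilient values. They and the blood samples of a second strain, D2, also enter the variance behind each limma p for 5 against 5. The labels do not state how the libraries relate to litters or cages, so p-values measure the spread between these samples.

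Whole blood is a mixture. Red cell precursors (reticulocytes) and platelets carry large amounts of RNA from a small number of genes, such as those for globins and heme synthesis, whereas lymphocytes, monocytes and neutrophils carry the transcripts of immunity. Social stress releases glucocorticoids and catecholamines, which are known to move leukocytes between blood, spleen and marrow. In bulk blood a lower level can mean fewer cells of a type or less RNA per cell, and these cannot be told apart in any result below.

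The 10 libraries held 11637152 to 15878495 reads on the tested genes. Globin transcripts had been depleted before sequencing and still took 2.05% to 5.3% of reads, and Alas2, the erythroid enzyme that starts heme synthesis, took 6.33% to 12.6%. The 10 most abundant genes took 22.6% (resilient 5) to 35.3% (resilient 2). The scaling that the authors applied differed most among resilient libraries: their effective library sizes were 0.644 to 1.47 times the reads, against 0.903 to 1.19 in controls. Every measured marker of red cells, platelets, neutrophils, monocytes and lymphocytes had reads in all 10 libraries. All levels below are log2 CPM, the reads of a gene scaled to the library's effective size with 0.5 added to each count, and they are not divided by gene length, so they compare samples for 1 gene and not genes with each other.

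Few genes separated resilient from control blood. A gene was called when its unadjusted limma p was below 0.05 and its fold change was at least 1.2, the rule of the study, and 276 of 13084 genes (2.11%) passed, 111 higher (0.848%) and 165 lower (1.26%) in resilient blood. No gene passed after Benjamini-Hochberg adjustment by limma, where the smallest adjusted p was 0.985, and 290 genes (2.22%) had an unadjusted p below 0.05, fewer than the 5% that a flat distribution of p would give. The median log2 fold change over all genes was 0.02. When libraries were scaled to total reads instead, that median moved to -0.16, 146 genes were called, and 21 of these were higher against 125 lower, so the split of the calls by direction depended on the scaling. Of the calls, 163 (59.1%) had a mean below 2 on the log2 CPM scale, against 31.5% of all genes. Omitting resilient 5 alone raised the calls from 276 to 1126, of which 667 were higher. Leaving out each library in turn kept 47 calls throughout, 20 higher and 27 lower. A fit of the compared groups alone called 196 genes and kept 137 of the 276 calls.

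**Figure D1:**
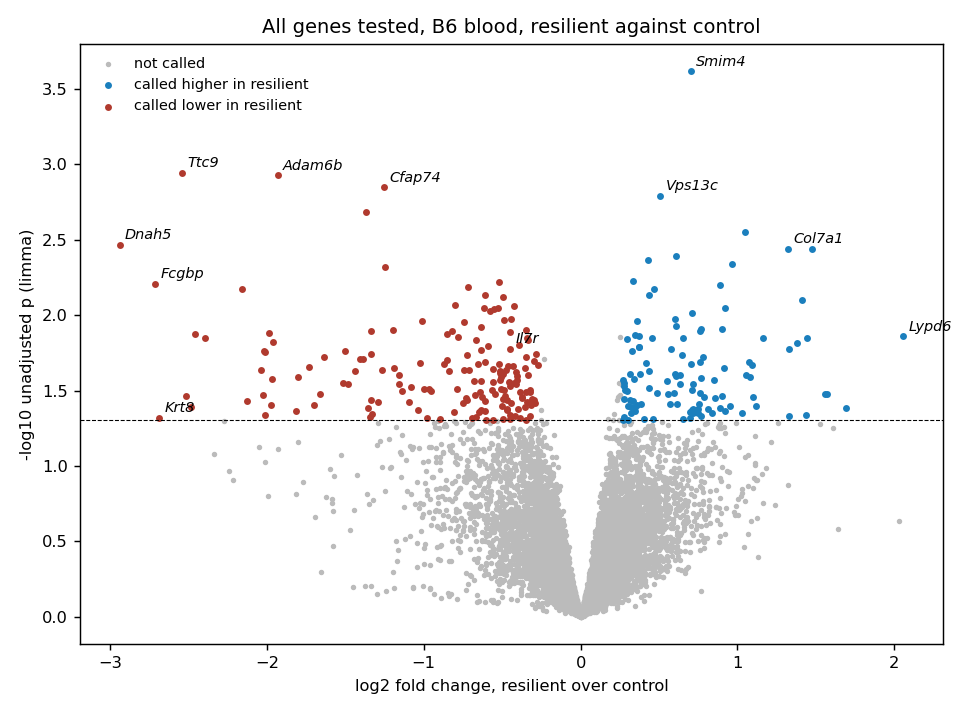
Each point is 1 of 13084 genes, with the log2 fold change of resilient over control blood on the x axis and the negative log10 of the unadjusted limma p on the y axis, and the dashed line marks the threshold of the call. The 111 called higher and 165 called lower genes sit in a thin rim above the line, with Smim4 highest on the y axis and Dnah5, Fcgbp, Krt8 and Ttc9 far to the left.

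Complete separation of the groups was rarer. In 34 genes (0.26%) every resilient sample lay on one side of every control sample, 19 above and 15 below, and 17 of the 34 were also called. Of these, Eif3s6-ps4 and Ighv1-14 had no reads in any control, and their lowest resilient value, -4.36, also stood for no reads. Such a value is set by the effective library size, so the placing of that sample above the controls does not rest on reads. The smallest two-sided p that an exact permutation of 5 against 5 samples can give is 0.00794, so no single gene could pass a correction over all genes by that test.

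The smallest p of the comparison belonged to Smim4, which encodes a small mitochondrial inner membrane protein known as an assembly factor of respiratory complex III (chromosome 14, 31088132 to 31128956, minus strand, GRCm38). Its log2 CPM was 3.01, 2.15, 2.42, 2.24 and 2.22 in controls 1 to 5 and 3.23, 3.39, 3.22, 2.92 and 2.78 in resilient samples 1 to 5. Only control 1 reached into the resilient range. The group means were 2.41 ± 0.35 and 3.11 ± 0.25 (SD, n = 5 each), a log2 fold change of 0.70 ± 0.16 (SE, limma unadjusted p = 0.000241, adjusted p = 0.985, exact permutation p = 0.0238). Smim4 was among 7 genes called under 20 other settings of scaling, filter, variance model, covariate and library left out. No gene was called under all 24 settings, which add fits within parts of the samples. The change of Smim4 was 0.70 in samples whose titles start with EC3 and 0.56 in those starting with EC4, where it was not called.

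Vps13c, a lipid transfer protein of the contacts between endoplasmic reticulum, late endosomes and mitochondria (chromosome 9, 67840396 to 67995638), was 5.79, 5.68, 5.69, 6.12 and 5.69 in controls and 6.47, 6.64, 6.42, 6.10 and 5.91 in resilient samples. Control 4 stood above the other controls and was higher than resilient 4 and 5. The log2 fold change was 0.51 ± 0.14 (limma unadjusted p = 0.00161, exact permutation p = 0.0238). It came to 0.32 with libraries scaled to total reads, where the gene was not called (limma unadjusted p = 0.0876).

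Ubl4a, a subunit of the complex that hands tail-anchored proteins to the endoplasmic reticulum, was 3.50, 3.20, 3.13, 3.60 and 3.40 in controls and 3.76, 3.89, 3.94, 3.86 and 3.52 in resilient samples. Resilient 5 lay inside the control range and the other resilient samples above it. The log2 fold change was 0.43 ± 0.14 (limma unadjusted p = 0.00427). B4galt3, a Golgi galactosyltransferase, was 3.51, 3.38, 3.51, 3.34 and 3.56 in controls and 3.64, 3.88, 4.04, 3.76 and 3.65 in resilient samples, which did not overlap (log2 fold change 0.33 ± 0.11, exact permutation p = 0.00794). Neither gene was called with total-read scaling, where the changes were 0.24 and 0.15.

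Other genes among the 12 called higher with the smallest p were of mixed function. Gltp, a glycolipid transfer protein, rose from 4.24 ± 0.13 to 4.68 ± 0.37, Spata13, an exchange factor for small GTPases, from 6.39 ± 0.20 to 6.85 ± 0.39, and Ccdc61, a centrosomal protein, from 1.78 ± 0.08 to 2.39 ± 0.41 log2 CPM. Col7a1, the collagen of anchoring fibrils, rose by 1.32 ± 0.41 and the F-box gene Fbxo48 by 0.89 ± 0.30 on the log2 scale. Gm37123 and Gm15500 did not overlap between groups, with changes of 1.05 ± 0.32 and 0.97 ± 0.31. Gm10704, a processed pseudogene, was between -4.86 and -3.29 in controls and between -4.01 and -2.37 in resilient samples, levels of very few reads. A gene without reads takes a higher value in a library of smaller effective size. Controls 1, 2, 4 and 5 (-4.64 to -4.86) and resilient 2 (-4.01) were at that value.

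The largest fold changes upward were in genes near 1 CPM. Lypd6, a modulator of nicotinic acetylcholine receptors, was -0.73, -4.79, -1.41, -3.28 and -0.08 in controls and 0.70, 0.39, 0.40, -1.23 and -0.26 in resilient samples. The groups overlapped, and the difference of 2.06 ± 0.78 (limma unadjusted p = 0.0138) fell to 1.38 without control 2, where the gene was not called. Gas1 (1.69 ± 0.78), Gm7334 (1.57 ± 0.70) and Acacb, which makes malonyl-CoA at mitochondria (1.56 ± 0.69), also overlapped between groups. Slc6a3, the dopamine transporter, was picked out after its values were seen: 0.57, -1.98, 0.85, 1.2 and 0.45 in controls and 2.26, 2.33, 1.75, 0.98 and 1.00 in resilient samples, a difference of 1.45 ± 0.55 that fell to 0.90 without control 2.

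**Figure D2:**
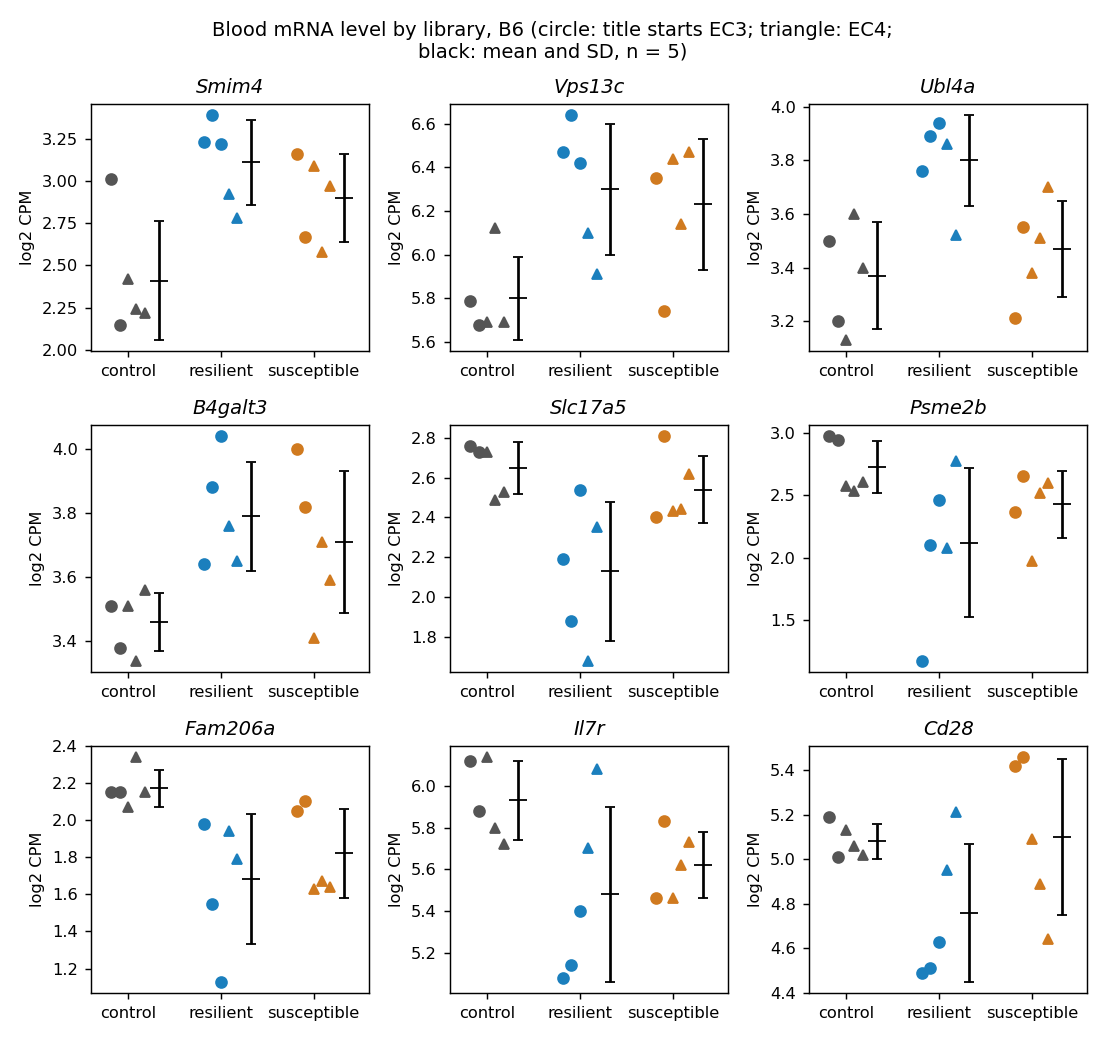
Each panel gives the log2 CPM of 1 gene in every control, resilient and susceptible B6 library, with circles for titles starting EC3, triangles for EC4, and the black mark for the mean with its SD (5 libraries a group). Smim4, Vps13c, Ubl4a and B4galt3 sit higher in most resilient than control libraries, Slc17a5, Psme2b and Fam206a lower, and in Il7r and Cd28 the resilient circles lie below the controls while resilient 5 does not.

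Slc17a5, the lysosomal sialic acid exporter (chromosome 9, 78536488 to 78588041), was 2.76, 2.73, 2.73, 2.49 and 2.53 in controls and 2.19, 1.88, 2.54, 1.68 and 2.35 in resilient samples. Only resilient 3 reached the control range. The log2 fold change was -0.52 ± 0.17 (limma unadjusted p = 0.00598, exact permutation p = 0.0238), with -0.54 in EC3, where it was not called, and -0.57 in EC4 titles.

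Psme2b, an intronless copy of the gene for a proteasome activator subunit (chromosome 11, 48945354 to 48946190), was 2.98, 2.95, 2.58, 2.54 and 2.61 in controls and 1.17, 2.10, 2.46, 2.08 and 2.78 in resilient samples. Its fold change was -0.61 ± 0.21 on the log2 scale, and reads could be shared with its parent gene Psme2, whose change was 0.02. Fam206a was 2.15, 2.15, 2.07, 2.34 and 2.15 in controls and 1.98, 1.55, 1.13, 1.94 and 1.79 in resilient samples, without overlap (log2 fold change -0.50 ± 0.17, exact permutation p = 0.00794). Slc17a5 and Psme2b were 2 of the 7 genes called under the 20 settings named for Smim4, and Psme2b was not called within EC4. The others, seen only afterwards, were Srm, the spermidine synthase (-0.58), Dph6, of the diphthamide pathway of elongation factor 2 (-0.49), D3Ertd751e (-0.53) and Gm17018 (-0.64).

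Genes near or below 1 CPM gave the larger downward changes. Adam6b, a disintegrin gene inside the immunoglobulin heavy chain locus, was -0.94, -1.62, -1.70, -0.61 and -0.75 in controls and -2.67, -4.01, -4.36, -3.11 and -1.15 in resilient samples, a difference of -1.93 ± 0.53 (limma unadjusted p = 0.00118). Ttc9 was -2.32, -1.09, -0.02, 0.09 and -0.08 in controls and -1.45, -2.42, -4.36, -4.69 and -3.22 in resilient samples, a difference of -2.54 ± 0.69. Resilient 1 overlapped the controls in Ttc9 and resilient 5 in Adam6b. Mblac1 changed by -1.37 ± 0.40, Gm43011 by -1.25 ± 0.40 without overlap, and Dglucy, the D-glutamate cyclase, by -0.72 ± 0.24.

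A group of lower genes belongs to airway lining cells and not to blood. Cfap74 and Dnah5 are parts of motile cilia, Fcgbp is a mucus protein, Msln marks mesothelium and airway, and Krt8 and Krt15 are epithelial keratins. Dnah5 was -1.47, -0.70, 2.58, 1.74 and 0.89 in controls and -1.93, -4.01, 0.60, -4.69 and -1.64 in resilient samples, a difference of -2.94 ± 0.91. Controls 3 and 4 were highest, and the same held for Fcgbp (-2.71 ± 0.91), Msln (-2.16 ± 0.73) and Krt15 (-2.51 ± 1.12), whereas Krt8 (-2.69 ± 1.29) was highest in resilient 1. The exact permutation p was 0.0397 for Dnah5, 0.0635 for Fcgbp, 0.119 for Msln, 0.127 for Krt15 and 0.167 for Krt8. Cfap74 differed from these: controls at 0.64, 0.42, 1.23, -0.34 and 0.52 lay above all resilient samples at -1.45, -0.84, -0.66, -0.44 and -0.41, and its change was -1.26 ± 0.35, and -1.29 without controls 3 and 4.

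A list of 18 airway epithelial genes, made after these values were seen and so without a test, was lower on average in resilient blood for 18 of 18 genes, with 13 called lower (1.26% of all genes) and a median log2 fold change of -2. The calls fell to 3 without control 3, to 5 without control 4, to 3 without resilient 4, to 6 without resilient 2 and to 7 without resilient 5. A fit of the compared groups alone called 3 of the 18 lower, and a fit of B6 samples alone 6. Its summed level was 126.4, 111.1, 1739, 872.9 and 310.7 CPM in controls 1 to 5 and 351.7, 47.18, 574.9, 27.94 and 65.25 CPM in resilient 1 to 5. Bpifa1, a secreted protein of upper airways, made up 68.5% of the sum, at 6.52, 6.23, 10.25, 9.22 and 7.57 in controls and 7.59, 4.90, 8.78, 4.31 and 5.53 in resilient samples. Without controls 3 and 4 none of the 18 genes was called and the median was -0.80, while 480 genes were called in all, 333 of them higher. Trunk blood was collected at decapitation, per the study's methods, and the part of the collection in these values was not tested. A list of 4 skeletal muscle genes, also made afterwards, had 0 called and summed to 11.81 to 42.07 CPM in controls and 24.84 to 78.6 CPM in resilient samples.

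T cell genes were the blood cell list with the most calls. Of 24 measured, 3 were called lower (1.26% over all genes) and none higher, 23 were lower on average, and the median was -0.26 beside 0.02 over all genes. Without resilient 1 the median was -0.15 and none was called, none was called without resilient 2, and 1 was called without control 2, control 3 or resilient 3. A fit of B6 samples alone called 1 lower, and a fit of the compared groups alone 5. Il7r, the receptor for the survival cytokine interleukin 7 (chromosome 15, 9505788 to 9530176, minus strand), was 6.12, 5.88, 6.14, 5.80 and 5.72 in controls and 5.08, 5.14, 5.40, 5.70 and 6.08 in resilient samples. Resilient 1 to 4 were below the lowest control, and resilient 5 was not. The log2 fold change was -0.45 ± 0.18 (limma unadjusted p = 0.0166, exact permutation p = 0.0556).

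Cd6, a T cell surface receptor that tunes signalling, and Cd28, the costimulatory receptor, followed the same order of samples. Cd6 was 3.91, 3.88, 3.92, 3.57 and 3.62 in controls and 2.85, 3.11, 3.19, 3.57 and 3.92 in resilient samples (log2 fold change -0.45 ± 0.22, exact permutation p = 0.0714). Cd28 was 5.19, 5.01, 5.13, 5.06 and 5.02 against 4.49, 4.51, 4.63, 4.95 and 5.21 (-0.32 ± 0.15, exact permutation p = 0.0873). In both, resilient 1 to 3 were lowest of the 10 samples. Without resilient 5, 13 of the 24 T cell genes were called lower. With total-read scaling none was, and the median was -0.44 beside -0.16 over all genes, which that scaling also lowered. Cd3d, a T cell receptor subunit, was 5.17 ± 0.16 in controls and 5.07 ± 0.31 in resilient samples, a difference of -0.11 with a 95% interval of -0.47 to 0.26.

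NK and cytotoxic genes had the lowest median of the blood cell lists, -0.35, with 20 of 20 lower on average and none called, and -0.23 without resilient 2. A fit of B6 samples alone called 3 of the 20 lower, and a fit of the compared groups alone 2. Klrb1c (NK1.1) was 4.36 ± 0.17 in controls and 3.84 ± 0.48 in resilient samples, and Gzma, granzyme A, 6.58 ± 0.32 and 6.05 ± 0.55. Both differences, -0.52 ± 0.28 and -0.53 ± 0.30, missed the threshold (exact permutation p = 0.0556 and 0.0714). For B cells 20 of 22 genes were lower on average with a median of -0.06 that ranged from -0.16 to 0.05 when 1 library was left out, and none called. Ms4a1 (CD20) was 8.30 ± 0.21 and 8.26 ± 0.40 and Ighm 9.53 ± 0.25 and 9.47 ± 0.38 in control and resilient blood.

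Myeloid and platelet lists had no calls. The platelet median was 0.46, with 17 of 19 genes higher on average, and fell to 0.19 without control 2. Ppbp was 10.62 ± 0.79 in controls and 11.21 ± 0.38 in resilient samples, where control 2 was lowest at 9.39. In susceptible blood 10 of the 19 platelet genes were called higher than in control (background 2.98%), with a median of 0.84. The same controls entered both comparisons. Neutrophil genes had a median of 0.15, monocyte genes 0.01, and eosinophil and basophil genes -0.10, and each of these took both signs over the fits with 1 library left out.

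Of the erythroid list, 29 of 29 measured genes were higher on average in resilient blood, with a median of 0.23 and 1 called (0.848% called higher over all genes). The median was 0.05 without resilient 1, 0.04 without resilient 2 and 0.13 without control 2, and without resilient 5 it was 0.56 with 4 called. With total-read scaling it was 0.05, where the median over all genes was -0.16. Epor, the erythropoietin receptor, was 2.44, 1.05, 2.31, 2.01 and 1.93 in controls and 2.74, 3.31, 2.68, 2.25 and 1.62 in resilient samples, a difference of 0.57 ± 0.26 that fell to 0.35 and was not called without control 2. Controls overlapped with resilient 4 and 5, and the exact permutation p was 0.19. Alas2 was 16.55 ± 0.29 and 16.80 ± 0.89, and the globin gene Hba-a1 9.29 ± 0.39 and 9.49 ± 0.93, in control and resilient blood. Cell cycle genes, which red cell precursors in blood also carry, were higher on average in 27 of 29 with a median of 0.23 and none called, a median that ranged from 0.07 (without control 2) to 0.45 (without resilient 5).

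Genes of mitochondrial respiration had small positive medians. Of complex I, which takes electrons from NADH, 2 of 36 genes were called higher (0.848% over all genes) and none lower, with a median of 0.07. Without resilient 1 the median was 0.04 with 0 called higher and 1 lower, and without resilient 5 it was 0.03 with 7 higher and 1 lower. Over all genes, omitting resilient 5 gave 667 called higher and 459 lower. No complex I gene was called without control 3 or without resilient 2. Ndufs1, its largest catalytic subunit, was 5.74, 5.73, 5.41, 5.71 and 5.84 in controls and 6.36, 6.15, 5.93, 5.66 and 5.73 in resilient samples (0.28 ± 0.12). Ndufb6, an accessory subunit, was 3.48, 3.85, 3.30, 3.55 and 3.48 against 4.05, 3.89, 3.59, 3.73 and 3.80 (0.28 ± 0.12). Resilient 4 and 5 lay inside the control range for both genes, and resilient 3 also for Ndufb6. Exact permutation p was 0.111 for Ndufs1 and 0.0635 for Ndufb6.

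Among complexes II to IV, 1 of 26 was called higher and the median was 0.18, which fell to 0.10 with none called without resilient 1, while 7 were called without resilient 5. Uqcr11, a small subunit of complex III, was 4.58 ± 0.23 in controls and 5.06 ± 0.44 in resilient samples, a difference of 0.48 ± 0.21 (exact permutation p = 0.0873). No ATP synthase gene (median 0.15 over 16) and none of 9 measured mitochondrially encoded genes (median 0.27, and 0.05 without resilient 1) was called. The cytosolic ribosomal protein list (79 genes, median 0.03) and the proteasome list (31 genes, median 0.01) were close to the median of all genes. With total-read scaling the complex I median was -0.11 beside -0.16 over all genes, so its sign depended on the scaling. That scaling moves every gene by the same amount, so the order of both medians was fixed beforehand and is no support.

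Genes that answer to stress hormones were not called. None of 18 measured glucocorticoid targets passed, with a median of -0.11 that ranged from -0.23 (without control 1) to -0.05 (without resilient 3). Fkbp5, a chaperone of the glucocorticoid receptor that the hormone induces, was 3.77, 3.66, 3.99, 3.96 and 4.55 in controls and 4.92, 3.41, 3.72, 3.76 and 3.99 in resilient samples, a difference of -0.03 with a 95% interval of -0.56 to 0.50. Tsc22d3 was 7.23 ± 0.53 and 7.17 ± 0.20, and the receptor gene Nr3c1 6.57 ± 0.08 and 6.48 ± 0.29. The intervals do not exclude changes of moderate size in either direction for these genes.

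The remaining lists gave 1 call in all. Manf, a secreted factor of the unfolded protein response, was 4.06, 4.45, 4.19, 4.30 and 4.26 in controls and 3.84, 4.03, 3.49, 3.93 and 4.42 in resilient samples (-0.31 ± 0.14). It was the 1 called of 17 genes in that list. Interferon-stimulated genes (39, median 0.01), inflammatory genes (20, -0.06), heat shock genes (18, -0.14), immediate early genes (15, -0.11), heme synthesis (10, 0.24) and MHC class I (15, -0.11) and class II (10, -0.11) had none, and each of these medians moved by over 1.5 times when some library was left out. Circadian clock genes had a median of -0.21 over 15 genes, and Clock itself was 4.19 ± 0.15 against 3.96 ± 0.18, a difference that missed the call (limma unadjusted p = 0.0529, exact permutation p = 0.0397).

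**Figure D3:**
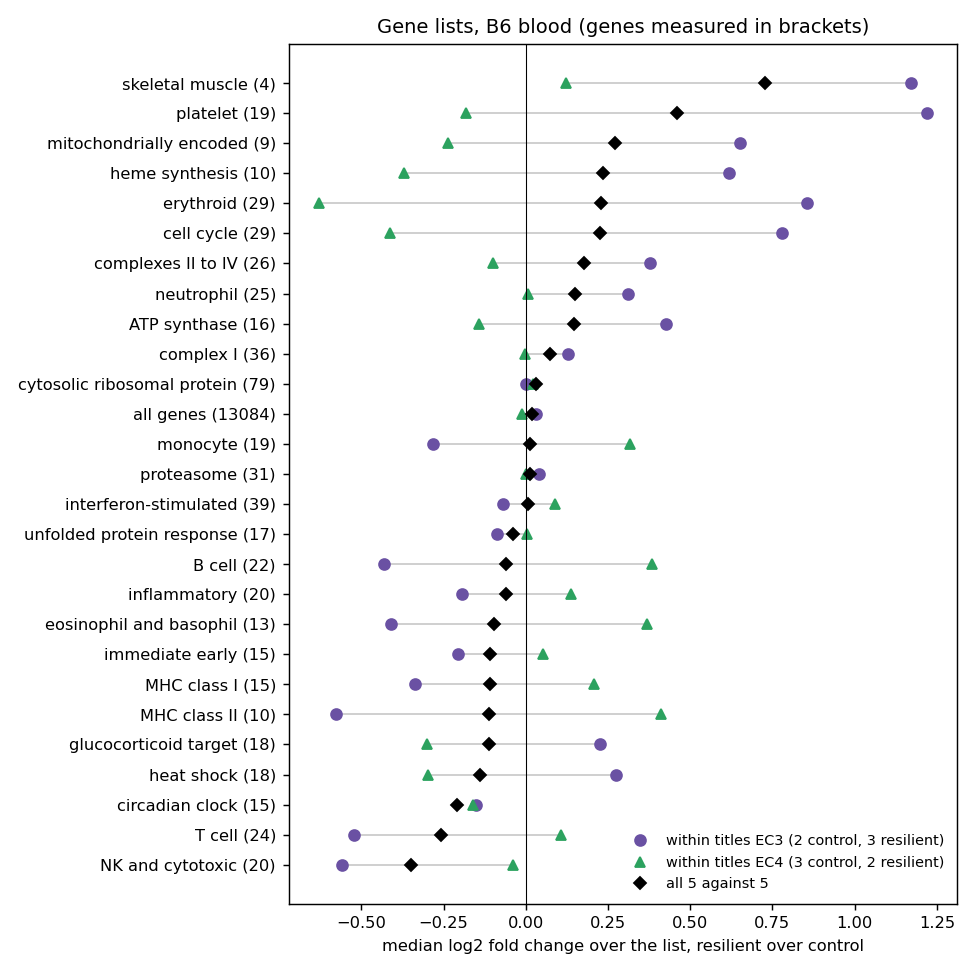
Each row is a gene list and the x axis is the median log2 fold change of resilient over control blood, with black diamonds for all 5 against 5 samples, purple circles for titles starting EC3 and green triangles for EC4. Erythroid, platelet and cell cycle lists lie to the right in EC3 and to the left in EC4, B cell and MHC lists the other way round, and the diamonds lie between.

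Titles of the samples start with EC3 (controls 1 and 2, resilient 1 to 3) or EC4 (controls 3 to 5, resilient 4 and 5). Changes were also taken within each. The labels do not say what these title starts mean. Within EC3, 2459 genes (18.8%) were called, 1698 higher (13%) and 761 lower (5.82%). Within EC4, 418 genes (3.19%) were called, 130 higher (0.994%) and 288 lower (2.2%). No gene passed after adjustment in either, with smallest limma adjusted p of 0.248 and 0.0571. The change had opposite signs in EC3 and EC4 for 9745 genes (74.5%). With 1 library left out, in fits added after the data had been seen, that share ranged from 60% (without resilient 5) to 76.4% (without resilient 4). Lists did not all turn: circadian clock medians were -0.15 in EC3 and -0.16 in EC4, and neutrophil medians 0.31 and 0.01.

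The difference of the change between title starts was fitted as an interaction in the 15 B6 blood samples. It was called for 2928 genes (22.4%), none after adjustment (smallest limma adjusted p = 0.0601), against 276 for 5 against 5. In 1187 genes (9.07%) resilient and control samples did not overlap within either title start and moved in opposite directions. The count of 2928 rests partly on 2 libraries: without control 2 the interaction was called for 1283 genes (9.81%) and without resilient 5 for 1130 (8.64%), whereas without control 1 it was called for 3377, of which 43 passed adjustment, and without resilient 2 for 2439, of which 1 passed. These left-out fits were added after the data had been seen. Of the 276 genes called in the comparison of 5 against 5, 59 had an interaction p below 0.05, as had 22.4% of all genes. The signs were the same in both title starts for 227 of the 276. A call on the same samples favours equal signs, so this count is not support for the calls.

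Erythroid genes changed in opposite directions in this way. Their summed level was 242500 and 157500 CPM in EC3 controls against 358300, 378300 and 252900 CPM in EC3 resilient samples, and 183100, 175600 and 207800 CPM in EC4 controls against 175300 and 81530 CPM in EC4 resilient samples. In these scaled values each resilient sample was above both controls in EC3. In EC4 each was below all 3 controls, by a small margin in resilient 4. By share of reads, without that scaling, Alas2 (51.5% of the sum) overlapped between groups in both title starts. It took 11.6% and 8.85% in EC3 controls against 11.9%, 12.6% and 11% in EC3 resilient samples. In EC4 it took 9.77%, 8.6% and 9.88% in controls against 10.2% and 6.33% in resilient samples. Whether the list sum crosses without that scaling was not tested. The median log2 fold change of the list was 0.86 in EC3, with 16 called higher (13% over all genes), and -0.63 in EC4, with 4 called lower (2.2%). The interaction was called for 22 of 29 genes, beside 22.4% over all genes. Without resilient 5 the EC4 median was -0.11 and the interaction was called for 5 genes (8.64% over all genes). Without control 2 the EC3 median was 0.47 and the interaction was called for 9 (9.81%).

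Single genes showed it in each sample. Txnrd2, the mitochondrial thioredoxin reductase, was 5.92 and 5.36 in EC3 controls and 6.75, 6.68 and 6.38 in EC3 resilient samples, then 5.88, 5.90 and 6.26 in EC4 controls and 5.43 and 4.79 in EC4 resilient samples. The change was 0.97 in EC3 and -0.90 in EC4 (interaction limma unadjusted p = 9.98e-05). Rragd, a GTPase of lysosomal nutrient sensing, had a change of 1.65 in EC3 and -0.62 in EC4. Txnrd2 and Rragd were chosen after their values were seen.

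Some promoters of the erythroid genes hold a sequence feature that no fit used. The letters AGATAA, the site of GATA factors such as GATA1 (both strands searched), occur in the 250 bases before the annotated start in 8 of the 20 erythroid genes with a RefSeq promoter (40%), against 9.99% of 32851 promoter windows of that length and 2 of 14 T cell genes (14.3%). The sites nearest the start are shown, 30 bases each from RefSeq promoters of GRCm38.p6, read 5′ to 3′ on the strand given, with the motif in capitals, because these genes moved together in both title starts. A match is a description and does not show binding. A listed gene counted if any of its windows held the letters, whereas 9.99% is a share of single windows, so these shares differ in unit. The sites called E-box (6.02% of all windows) and glucocorticoid response element (0.00913%), also searched, were in 0 of the 20 erythroid genes. At these shares 0 of 20 says little for the E-box and nothing for the other site. The E-box was in 2 of the 14 T cell genes.
Alas2 (chrX:150547319-150547348, minus strand): ggcctctgctaaAGATAAaaagcaaagtag
Epb42 (chr2:121037086-121037115, plus strand): tctgtttgaacgAGATAAggaaatagagac
Epor (chr9:21963613-21963642, plus strand): caggctggggacAGATAAgctacagccacc
Hbb-bs (chr7:103828121-103828150, minus strand): tgttctctgcacAGATAAggacaaacatta
Kel (chr6:41704364-41704393, minus strand): cctgagaaactaAGATAAaagaggaggtga
Rhd (chr4:134864481-134864510, plus strand): cccggcagcctgAGATAAgacctttggcgg
Tal1 (chr4:115056209-115056238, minus strand): ggaattgctcaaAGATAAaagactctatag
Trim10 (chr17:36869399-36869428, minus strand): gtgtggggactcAGATAAggctcttgagct
The changes of these genes had the same signs. Epor moved by 1.17 in EC3 and -0.15 in EC4 on the log2 scale, Kel by 0.96 and -0.67, Rhd by 0.92 and -0.60, Trim10 by 1.06 and -0.87, Epb42 by 0.97 and -1.08, and Tal1 by 0.98 and -0.25. Alas2 moved by 0.79 and -0.59, and Hbb-bs, whose transcript was a target of globin depletion, by 0.45 and -0.74. Slc4a1, an erythroid gene without the motif in this window or without a listed promoter, moved by 1.00 and -0.78.

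**Figure D4:**
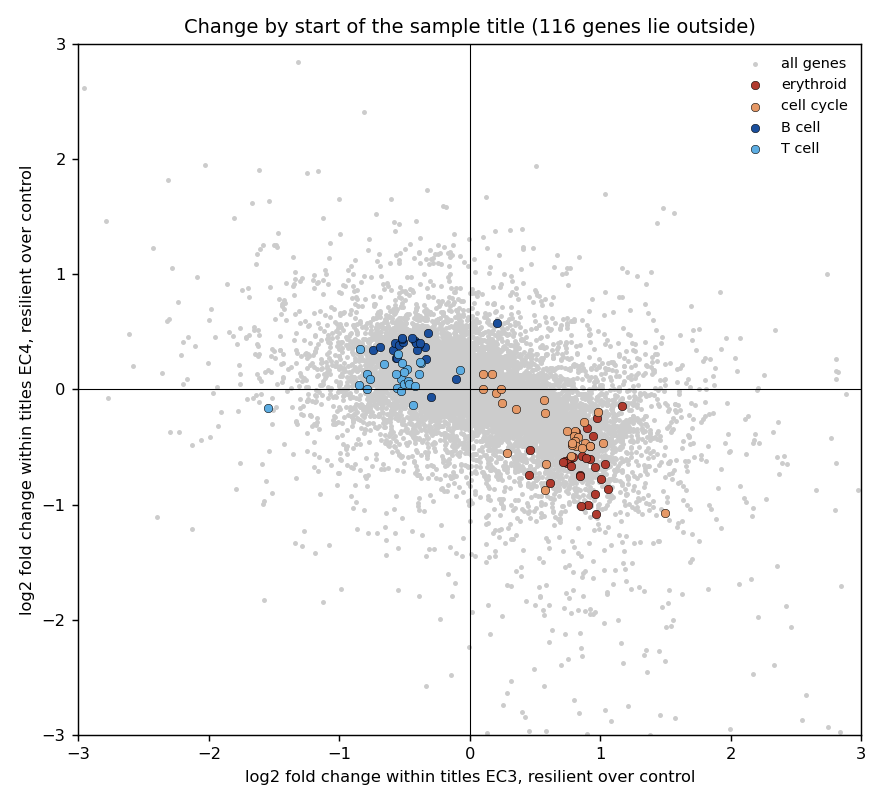
Each point is a gene, with the log2 fold change of resilient over control blood within EC3 titles on the x axis and within EC4 titles on the y axis, and 116 genes lie outside the drawn range. Erythroid and cell cycle genes gather at lower right (higher in EC3, lower in EC4), and B cell genes at upper left.

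B cell and MHC class II genes moved opposite to the erythroid ones in these scaled values. The B cell median was -0.43 in EC3 and 0.38 in EC4, with 4 called lower in EC3 (5.82% over all genes). The interaction was called for 15 of 22 genes, beside 22.4% over all genes. Ighm was 9.78 and 9.74 against 8.97, 9.47 and 9.27 in EC3, and 9.35, 9.21 and 9.59 against 9.67 and 9.97 in EC4, control before resilient. MHC class II genes had medians of -0.58 and 0.41 and an interaction called for 9 of 10. The T cell medians were -0.52 and 0.11, with 11 of 24 called lower in EC3 (5.82% over all genes), and the interaction was called for 8 (22.4%). NK and cytotoxic genes had medians of -0.56 and -0.04, and the interaction was called for 0 of 20. Levels are relative to each library's effective size and are not absolute amounts. Linked shifts of erythroid and lymphocyte levels therefore cannot be told apart from separate changes.

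Some respiratory chain genes and cell cycle genes also differed between title starts. Atp5b, the catalytic subunit of ATP synthase, changed by 0.81 in EC3 and -0.48 in EC4, and Cox7a2, a subunit of complex IV, by 0.95 and -0.41. Complexes II to IV had medians of 0.38 and -0.10 with an interaction called for 12 of 26 genes, and cell cycle genes 0.78 and -0.41 with 18 of 29. Complex I had medians of 0.13 and -0.00191, with an interaction called for 7 of 36 genes beside 22.4% over all genes. Rsad2, an antiviral radical SAM enzyme that made up 83.1% of the interferon list's sum, was 13.21 and 13.25 against 14.48, 13.89 and 13.43 in EC3, and 12.97, 12.94 and 13.34 against 12.83 and 11.88 in EC4, with an interaction that was not called (limma unadjusted p = 0.152). The interferon list as a whole had medians of -0.07 and 0.09. Airway genes had a median of 0.72 in EC3 and -4.65 in EC4, with 17 of 18 called lower in EC4 (2.2% over all genes). Susceptible blood turned the same way against the same controls for this list, with medians of 0.71 in EC3 and -2.29 in EC4.

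**Figure D5:**
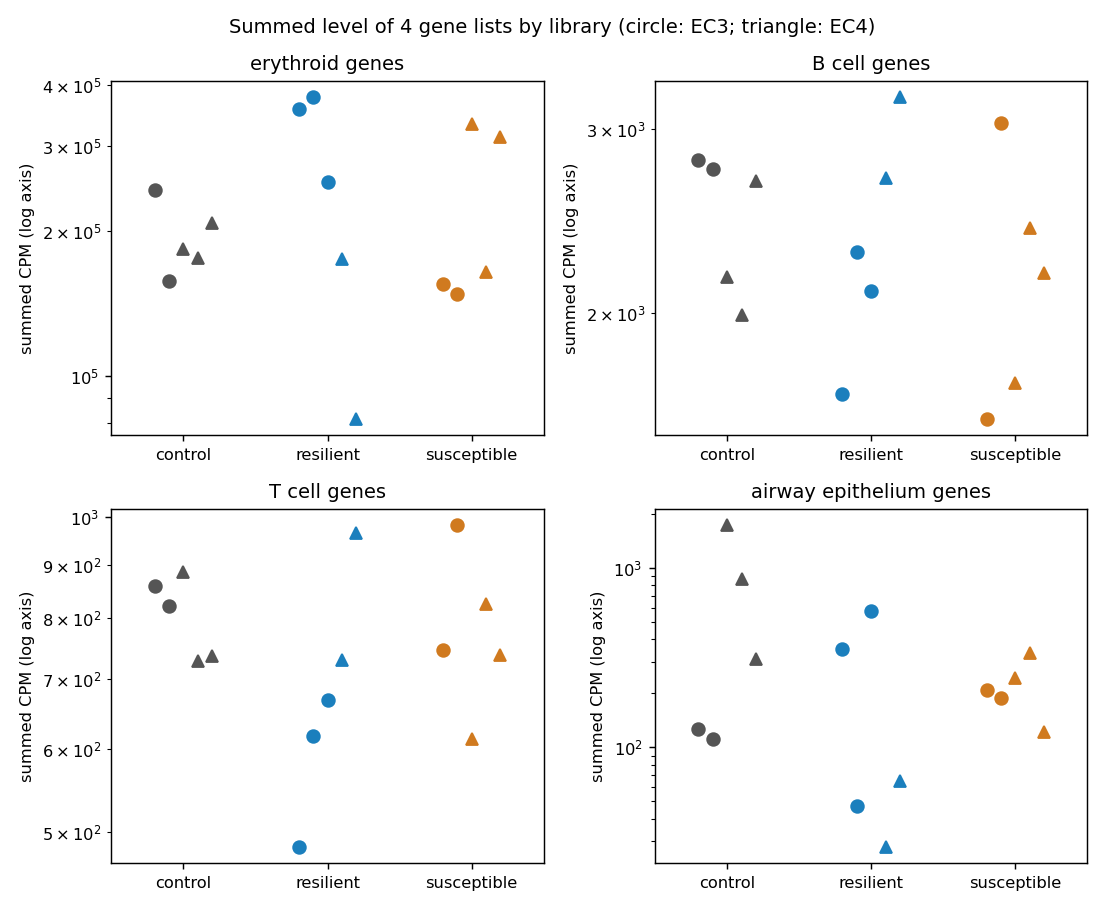
Summed CPM of the erythroid, B cell, T cell and airway lists in each B6 blood library on log axes, grouped by phenotype, with circles for EC3 and triangles for EC4 titles. Resilient circles lie above and resilient triangles below the control marks of the same shape for erythroid genes, the reverse holds for B cell genes, and the airway sum is highest in controls 3 and 4.

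Susceptible values lay on the resilient side of control for some of the genes with the smallest p and near control for others. Smim4 was 3.16, 2.67, 3.09, 2.58 and 2.97 in susceptible samples, 0.49 above control, and Vps13c was 0.43 above. The direct test of resilient against susceptible called 266 genes (2.03%), none after adjustment (smallest limma adjusted p = 1). The resilient minus susceptible difference was 0.21 ± 0.16 for Smim4, 0.08 ± 0.14 for Vps13c, -0.14 ± 0.18 for Il7r and -0.81 ± 0.69 for Ttc9, and none of these was called. Cfap74 was called in that test (-1.18 ± 0.35, limma unadjusted p = 0.0025), with susceptible samples at 0.70, 0.01, 0.50, 1.03 and -0.16, all above every resilient sample. Ubl4a (0.32), Slc17a5 (-0.41), Mblac1 (-0.93) and Cd28 (-0.34) were called as well, with limma unadjusted p of 0.0254, 0.0244, 0.0272 and 0.0363. A gene called against control and not against susceptible samples is not thereby shown to be alike in the latter.

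Blood miRNA libraries with the same title endings were compared in the same way. Of 299 miRNAs, 13 (4.35%) were called, 5 higher and 8 lower in resilient blood, none after adjustment (smallest limma adjusted p = 0.767), and none of the 12 measured of 20 listed blood cell miRNAs was called. The mature sequences of 5 of those described are given with the seed (bases 2 to 8) in capitals, from RefSeq on GRCm38.p6, and no seed is shared among them.
miR-16-5p: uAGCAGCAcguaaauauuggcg
miR-191-5p: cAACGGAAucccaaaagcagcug
miR-144-5p: gGAUAUCAucauauacuguaagu
miR-451a: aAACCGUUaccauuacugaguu
miR-142a-5p: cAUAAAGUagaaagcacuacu
The erythroid miR-451a was 18.70, 18.44, 18.43, 18.36 and 18.07 in controls and 18.07, 18.35, 17.99, 18.65 and 18.29 in resilient samples, a difference of -0.12 ± 0.18. Its cluster partner miR-144-5p was 15.72 ± 0.33 and 15.87 ± 0.23. Both overlapped between groups. Within title starts, miR-451a changed by -0.43 in EC3 and 0.19 in EC4, against the direction of the erythroid mRNAs, and miR-144-5p by 0.43 and -0.17, in their direction.

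The lymphocyte miRNA miR-150-5p was 8.10, 9.64, 8.76, 7.98 and 8.40 in controls and 7.24, 7.39, 7.79, 8.33 and 9.66 in resilient samples. Resilient 1 to 3 were the lowest samples, as for Cd6 and Cd28, and resilient 5 the highest. The difference of 5 against 5 was -0.49 ± 0.45, which became -0.23 without control 2, -0.28 without resilient 1, -0.32 without resilient 2 and a called -0.89 without resilient 5. The change was -1.40 in EC3 and 0.62 in EC4 (interaction 2.02 ± 0.68, limma unadjusted p = 0.0113, adjusted p = 0.368). miR-191-5p changed by -0.32 and 0.21 (interaction limma unadjusted p = 0.01), while the leukocyte miR-142a-5p changed by 0.10 and -0.76 and miR-16-5p by 0.62 and -0.08.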

How the data were processed

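Trunk blood RNA was depleted of ribosomal and globin transcripts, sequenced single-end, aligned to GRCm38 with STAR and counted over exons with HTSeq, and miRNA reads were quantified with miRDeep2, per the study's methods. The deposited blood mRNA and miRNA values are log2 CPM that the authors made with limma's voom after removing low-abundance genes. Every one of 327100 mRNA values came back as a whole read within 0.0001 reads. Groups follow the labels, and 2 D2 samples whose column names differ from their labels entered only the shared variance. limma 3.58.1 (R 4.3.3, with trend) was fitted to all 25 blood samples in 5 groups, and an exact permutation test was used for single genes. The interaction and the changes within title starts were fitted to the 15 B6 samples. Named genes are the 12 called genes a direction with the smallest p, the 5 with the largest change, called list members (at most 4 a list, otherwise the 2 most abundant) and fixed markers. Some genes are not reported here. The members and lists were chosen with earlier results of these data known. Gene names and positions come from GENCODE M21 (13054 of 13084 matched). Scripts were tested on simulated data. BNST tables were not used here.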

Additional observations from a re-analysis of the deposited data

Results flagged for a closer look

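Within groups of 5, a single sample stood apart from the other 4 by Dixon's test in 6 of the values named here, which chance alone does in about 1 of 20 groups, and 274 groups were tested. In log2 CPM these were Vps13c in control 4 (6.12), Gm10704 in control 3 (-3.29), Ccdc61 in resilient 1 (1.68), Slc6a3 in control 2 (-1.98), Rplp1 in control 1 (10.15) and Myd88 in resilient 1 (3.97).

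Some values had every resilient sample on one side of the controls in EC3 titles and on the other side in EC4 titles. All are levels scaled to the effective library size. Given as the log2 change in EC4 minus that in EC3, they were -3.09 for Lars2, 1.09 for Klf2, -8.15 for Tspan1, -2.27 for Rragd and -0.60 for Psmd8. The same held for Atp5b (-1.28), Ly6e (0.84), Atp5a1 (-0.38), Txnrd2 (-1.87), Rsad2 (-1.43), Ighm (0.96) and mt-Rnr2 (-1.33). Of gene lists, summed levels of erythroid (median difference -1.48), B cell (0.82), interferon-stimulated (0.16 as a median over genes, although the sum itself was higher in EC3 and lower in EC4), mitochondrially encoded (-0.89) and ATP synthase genes (-0.57) crossed in this way. By the limma interaction in B6 samples none of these genes passed adjustment (smallest adjusted p = 0.0601, Tspan1), and what separates the title starts was not tested.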

How the results depend on the processing

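The number of genes called (276) ranged from 187 (without resilient 2) to 1126 (without resilient 5) when 1 library was left out. It was 146 with libraries scaled to total reads, 114 with a mean log2 CPM of at least 2 (fewer genes tested), 175 in a fit of B6 samples alone and 508 with array weights. Alternatives added after seeing the data gave 480 without controls 3 and 4, 2459 within EC3 and 418 within EC4. No gene passed adjustment for resilient against control under any of these alternatives (smallest adjusted p from 0.0571 to 1). The causes were not tested. Calls against susceptible samples numbered 266, and 163 in B6 samples alone, and miRNA calls (13) ranged from 5 to 23 with 1 library left out.

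With total reads, list medians moved to -0.18 (interferon-stimulated), -0.25 (inflammatory), -0.22 (unfolded protein response), -0.11 (complex I), -0.15 (cytosolic ribosomal) and -0.17 (proteasome), beside a median of -0.16 over all genes. That scaling moves every gene by the same amount. With quantile normalization the ribosomal median was -0.12. Within EC3 the medians were 0.86 (erythroid), 1.22 (platelet), -0.43 (B cell), -0.58 (MHC class II), -0.34 (MHC class I), 0.27 (heat shock), 0.78 (cell cycle), 0.43 (ATP synthase) and 0.72 (airway). Within EC4 they were -0.63 (erythroid), -0.37 (heme synthesis), -0.18 (platelet), 0.38 (B cell), 0.11 (T cell), 0.41 (MHC class II), 0.21 (MHC class I), 0.14 (inflammatory), -0.41 (cell cycle), -0.24 (mitochondrially encoded), -0.10 (complexes II to IV), -0.14 (ATP synthase) and -4.65 (airway).

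Among the named genes, those called under either setting turned direction only within title starts. In EC3 the changes were 0.46 (Msln), 0.64 (Scgb3a1), 0.57 (Scgb1a1), 0.41 (Scgb3a2), 0.93 (Cyp2f2), 0.72 (Bpifa1 and Bpifb1), 0.85 (Sec14l3), 0.83 (Reg3g), 0.54 (Krt15), 0.68 (Cbr2), 0.88 (Krt8) and 2.36 (Tspan1). In EC4 they were 0 (Il7r), -0.04 (Uqcr11), -0.15 (Epor), 0.04 (Cd6), 0.01 (Cd28), -0.62 (Rragd) and -0.90 (Txnrd2). No paired analysis was possible because the labels give the blood samples no replicate numbers. Depth limits genes near or below 1 CPM, where a few reads decide a fold change.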

Other observations

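Processed pseudogenes leaned one way. Of 145 tested, 12 (8.28%) were called higher in resilient blood (0.848% over all genes) and none lower, with a median log2 fold change of 0.15 beside 0.02 over all genes, and 119 of them had a mean below 2 on the log2 CPM scale. Such copies can share reads with their parent genes. The value of a gene without reads was higher in resilient 1 to 3 (effective sizes 8033311 to 10251072) than in controls (12478758 to 14664343). Its part in this lean was not tested.

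Several genes outside the naming rule separated the groups without overlap and are given as values chosen after they were seen. Smad5, which carries bone morphogenetic protein signals, was 4.19 to 4.46 in controls and 3.69 to 4.13 in resilient samples (log2 fold change -0.34). Dvl3, of the Wnt pathway, was -0.73 to 0.41 in controls and 0.52 to 1.00 in resilient samples (0.78). Hs2st1, a heparan sulfate sulfotransferase, was 2.78 to 3.21 and 3.29 to 3.60 (0.37), and Tubg1, gamma-tubulin, 1.85 to 2.11 and 2.25 to 2.62 (0.41). Psme1, the partner subunit in the proteasome activator that Psme2 also forms, was 6.09 to 6.18 and 5.89 to 6.08 (-0.14, not called).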
